A study of Drosophila melanogaster with 18 samples.

Results

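The H/ACA small nucleolar RNA (snoRNA) genes were examined in testes of *modulo* mutant and control *Drosophila melanogaster*. They are the 106 genes, of 17575 in the count files, whose FlyBase symbol begins with snoRNA:Psi, a prefix written below as Psi alone. The rest of the symbol names the ribosomal RNA (rRNA) that the snoRNA is annotated to guide on and the position of the target uridine, and a closing letter separates copies that share a position. In this set 46 genes named 18S rRNA, at 18 positions, and 60 named 28S rRNA, at 33 positions. Of the 106, 84 had at least 10 counts in 3 or more of the 6 replicates and were tested, 29 with an 18S and 55 with a 28S target.

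The mutant carried modL8 over mod07570, so that both copies of *modulo* were mutant. The control was mod07570/+, so that it carried one of the same alleles but kept a wild-type copy. Total RNA came from whole testes of males aged 1 to 3 days and was depleted of rRNA. Testes hold germline stages from stem cells to spermatids as well as somatic cells. The authors reported that spermatid nuclei of this mutant all appeared to decompact and die, with no mature sperm in the seminal vesicles. Each genotype had 3 biological replicates, and each replicate was sequenced in 3 lanes that were summed.

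H/ACA snoRNAs fold into hairpins whose internal loops pair with a target RNA and place one uridine in the active site of a pseudouridine synthase. In flies this enzyme is Nop60B, the homolog of dyskerin, and it acts together with NHP2, Nop10 and Gar1. Most fly H/ACA snoRNAs lie in introns, are released as the host transcript is spliced, and are trimmed by exonucleases up to the bound proteins. The particles work in the nucleolus, where rRNA is made, and Modulo is a nucleolar protein related to Nucleolin. The comparison therefore asked whether RNA levels of these guides differed when *modulo* was mutant. Modification of the rRNA itself was not measured.

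*mod* had 195, 181 and 121 normalized counts in mutant replicates 1 to 3, against 2060, 1959 and 2105 in control, a log2 fold change of -3.62 (SE 0.18, edgeR adjusted p = 4.13e-05). A normalized count here is the summed count scaled to a common effective library size. Total counts per replicate ran from 90898263 to 107435753 in the mutant and from 87119182 to 94915971 in control. Genes of rRNA and of the mitochondrial genome took 1.41%, 1.76% and 2.77% of counts in mutant replicates 1 to 3, against 0.936%, 1.33% and 1.18% in control. Among 23 markers of testis cell types, accessory gland and muscle, 2 were called, both higher: *mia*, a spermatocyte gene, and *tj*, a cyst cell gene. Of all genes, 14.5% were called higher and 17.8% lower. With the replicate number as a block, 5 were called higher, where 22.2% of all genes were, and 1 lower, where 23.4% were. Those added were *vas* and *bam* of the early germline and *aly* of spermatocytes, higher, and *upd1* of the hub, lower (block adjusted p from 0.00189 to 0.0362 for the 6). Of the other early germline, spermatocyte, cyst and hub markers, *bgcn* (log2 fold change -0.12), *eya* (-0.10) and *zfh1* (-0.11) were below 0. The genes *can* (0.385) and *sa* (0.01) were above 0, and none of these others was called in either fit. The late spermatid markers *Mst87F* (0.15), *dj* (0.23), *c-cup* (0.03) and *soti* (0.13) were above 0 and also not called in either fit. The part of cell composition in the members' values was not tested. The summed level of 4 accessory gland markers was 14578, 4465 and 9058 in the mutant and 24391, 1212 and 17129 in control, lowest in control replicate 2. In bulk tissue, fewer cells of a type and less RNA per cell cannot be told apart.

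H/ACA snoRNA counts were higher in the mutant for most of the tested genes. Of the 84, 45 were called higher at an adjusted p under 0.05 (edgeR), where 14.5% of all 14059 tested genes were called higher, and 0 were called lower, where 17.8% of all genes were. At an unadjusted p under 0.05, 55 were higher, where 21.4% of all genes were, and 0 lower, where 22.3% were. DESeq2 called 47 higher, where it called 17.6% of all genes higher, and 0 lower, where it called 19.4%. The log2 fold change was above 0 for 79 of the 84. Its median was 1.05, against 0.02 over all genes tested, with quartiles of 0.59 and 1.27 and a range from -0.32 to 3.95. In 56 of the 84, every mutant replicate lay above every control replicate, a pattern seen in 23.2% of all genes. In 1, Psi28S-3186, every mutant replicate lay below, as in 24.1% of all genes, but its difference was not called.

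Together the 106 genes held 22605, 27137 and 35306 counts in mutant replicates 1 to 3, against 11661, 15234 and 13575 in control. As CPM (counts scaled by the total of the library) this was 210, 274 and 388 in the mutant and 128, 160 and 156 in control. All 3 mutant replicates were above all 3 controls, and mutant replicate 3 stood highest. That replicate held the highest level of 66 of the 84 tested genes, and control replicate 1 held the lowest level of 41. Without mutant replicate 1, 2 or 3, the number called higher was 55, 31 and 30, where 20.3%, 7.03% and 10.5% of all genes were called higher in the same fits. Without control replicate 1, 2 or 3 it was 27, 32 and 29, where 9.07%, 8.95% and 7.84% of all genes were. The median log2 fold change without mutant replicate 3 was 0.76. The number called lower was 0 in each of these 6 fits, where 22.2%, 12.2% and 15.1% of all genes were called lower without mutant replicate 1, 2 or 3 and 14.3%, 14.1% and 12.8% without control replicate 1, 2 or 3. With the replicate number as a block, 56 were called higher, where 22.2% of all genes were, and 1 was called lower, where 23.4% were.

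**Figure D1:**
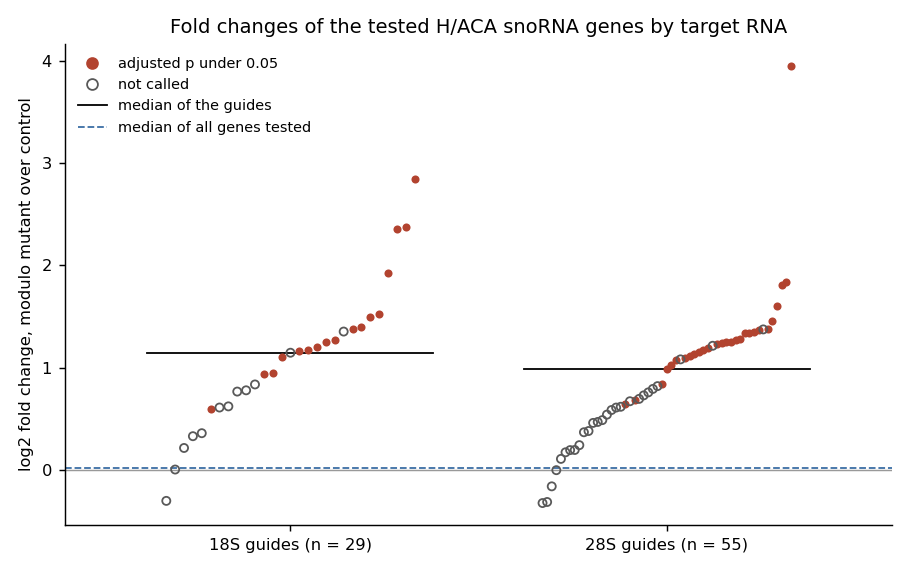
Log2 fold change (modulo mutant over control) of each of the 84 tested H/ACA snoRNA genes, with 18S guides at left and 28S guides at right, each sorted from low to high. Filled points passed an adjusted p under 0.05, black lines are the medians of the guides (1.15 and 0.98), and the dashed line is the median of all genes tested (0.02).

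Guides of both target RNAs were among those called higher. Of the 29 tested 18S guides, 17 were called higher and 0 lower, with a median log2 fold change of 1.15. Of the 55 tested 28S guides, 28 were called higher and 0 lower, with a median of 0.98. In the same fit 14.5% of all genes were called higher and 17.8% lower. The difference between the targets was not tested. The 18S count was 10 without mutant replicate 3 and 11 without control replicate 1, and the 28S count was 18 without mutant replicate 2 and 16, 17 and 17 without control replicates 1, 2 and 3. By mean level, the calls were 21 of the 27 genes with at least 100 normalized counts, 12 of the 19 with 50 to 100, and 12 of the 38 under 50. Their median log2 fold changes were 1.15, 1.16 and 0.69. The Spearman correlation of log2 fold change with log2 mean count was 0.334 over the 84 genes, and with gene length it was -0.119. These points share the same 6 libraries, and genes are not independent replicates.

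The members with the highest counts, not divided by length, showed both called and uncalled differences. Psi28S-291, in intron 4 of *RpL3* (FBgn0065064, chromosome 3R, 11223571 to 11223790, plus strand), took 27.9% to 32.8% of all H/ACA counts in the mutant and 32.4% to 37.9% in control. It had 5674, 8541 and 11790 normalized counts in the mutant, against 3785, 5881 and 5068 in control. The lowest mutant replicate lay below the highest control, and the difference was not called (log2 fold change 0.82, SE 0.28, edgeR adjusted p = 0.0621). With the replicate block it was called (adjusted p = 0.00251), as it was by DESeq2 (0.0117), in lane 3 alone (0.0453) and without mutant replicate 1 (0.00758).

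Psi28S-2566, in an intron of CG3902, was the other of the 5 members with the highest means that was not called. It had 1212, 1857 and 2577 normalized counts in the mutant, against 1027, 1632 and 1444 in control. The genotypes overlapped (log2 fold change 0.46, SE 0.29, edgeR adjusted p = 0.269), and the call appeared only with the block (0.0328) and without mutant replicate 1 (0.0392) among the alternatives run.

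Psi18S-1820 lies in an intron of *Nop60B* (FBgn0026169, 2R, 24176228 to 24176367, plus strand), the gene for the pseudouridine synthase that H/ACA snoRNAs guide. It had 1862, 2010 and 3219 normalized counts in the mutant, against 867, 1110 and 963 in control, with no overlap (log2 fold change 1.27, SE 0.22, edgeR adjusted p = 0.00552). Psi18S-176, which lies in no annotated host, had 1403, 1904 and 2403 in the mutant against 772, 835 and 881 in control (log2 fold change 1.20, SE 0.19, edgeR adjusted p = 0.00369). Both were called in every one of the 19 alternatives run for them.

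**Figure D2:**
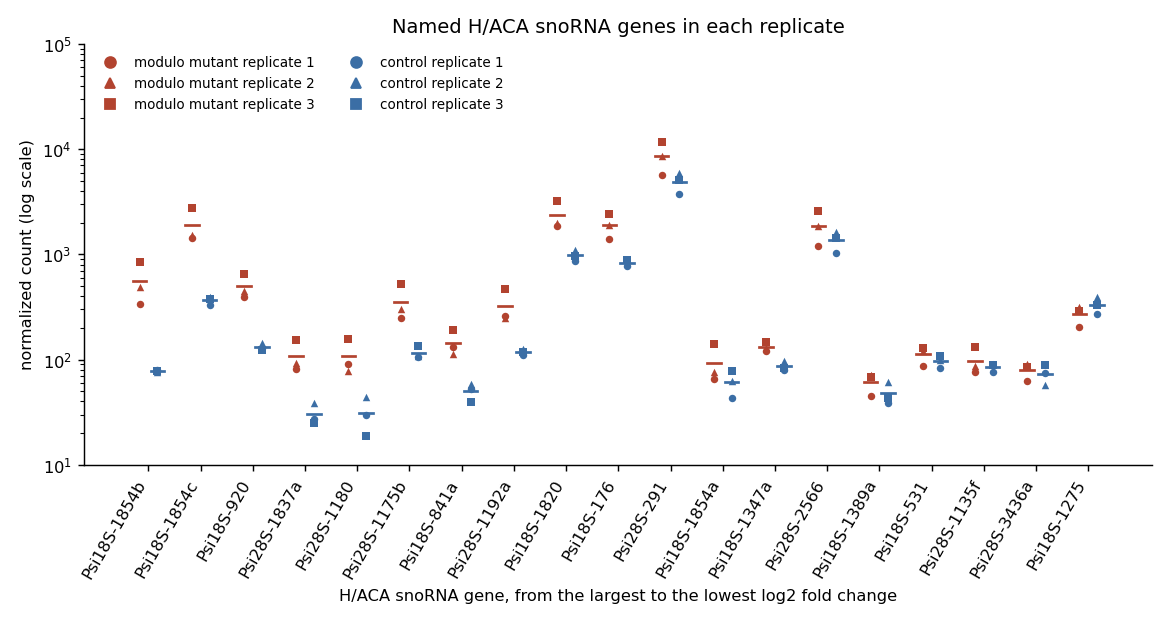
Normalized counts (log axis) of 19 named H/ACA snoRNA genes in each replicate, modulo mutant in red at left and control in blue at right of each pair, with bars at the group means. Genes run from the largest log2 fold change (Psi18S-1854b, 2.85) to the lowest (Psi18S-1275, -0.30), and at the left end every mutant replicate lies above every control.

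Among genes with a mean of at least 50 normalized counts, the largest rise was that of Psi18S-1854b (FBgn0083041), in *RpS5a*, a ribosomal protein gene. It had 338, 490 and 856 normalized counts in the mutant and 79.1, 76.3 and 77.8 in control (log2 fold change 2.85, SE 0.35, edgeR adjusted p = 0.00115). Psi18S-1854c (FBgn0083040), in the same intron, followed with 1421, 1531 and 2784 in the mutant and 328, 397 and 378 in control (2.38, SE 0.27, adjusted p = 0.000938). The control replicates of both genes lay close together, and the mutant replicates spread upward to replicate 3.

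Psi18S-920, in an intron of the ribosomal protein gene *RpL10Ab* (FBgn0083015, 3L, 11822984 to 11823124, plus strand), had 394, 454 and 658 normalized counts in the mutant and 128, 144 and 124 in control (log2 fold change 1.93, SE 0.21, edgeR adjusted p = 0.000716). Psi28S-1837a, in CG10576, had 81.9, 92.1 and 153 in the mutant and 27.0, 38.7 and 25.2 in control (1.84, SE 0.31, adjusted p = 0.0047). Psi28S-1180, in *tou*, which encodes the chromatin protein Toutatis, had 90.9, 77.7 and 158 in the mutant and 30.0, 43.8 and 18.9 in control (1.81, SE 0.39, adjusted p = 0.0125). None of these overlapped between genotypes. Of the 3, Psi28S-1180 alone lost its call in any alternative run, in lane 3 (adjusted p = 0.127).

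Psi28S-1175b, in *RpS16*, had 247, 300.3 and 518 normalized counts in the mutant and 106, 109 and 135 in control, a log2 fold change of 1.61 (SE 0.29). Its neighbours for the same position, Psi28S-1175a and Psi28S-1175c, rose by 1.34 and 1.35. Psi18S-841a, in *dom*, which encodes the chromatin remodeler Domino, had 131, 114 and 192 in the mutant and 52.1, 59.0 and 39.9 in control (1.52, SE 0.26). Psi28S-1192a, in *RpS5a*, had 260.0, 249 and 465 in the mutant and 110, 125 and 119 in control (1.46, SE 0.26). The edgeR adjusted p was at most 0.0173 for these 5 genes. Psi18S-1397, below the mean of 50 and named after its values were seen, had 59.4, 62.4 and 73.6 in the mutant and 14.0, 12.2 and 11.6 in control (2.36, SE 0.21, adjusted p = 0.000299).

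At the other end, Psi18S-1275, in the ribosomal protein gene *RpS29* (FBgn0086663, 3R, 9778398 to 9778537, plus strand), was the member with a mean of at least 50 whose fold change was below 0. It had 205, 319 and 289 normalized counts in the mutant and 272, 396 and 333 in control. The genotypes overlapped, and each mutant replicate lay below the control of the same number. The log2 fold change was -0.30 (SE 0.21, edgeR adjusted p = 0.306), and with the replicate block the gene was called lower (adjusted p = 0.0493). The host *RpS29* had a log2 fold change of 0.16 (adjusted p = 0.501).

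Psi28S-3436a, in *RpL17*, had 62.1, 90.2 and 85.5 normalized counts in the mutant and 75.1, 57.0 and 88.3 in control (log2 fold change 0.11, SE 0.23). Psi18S-531, which lies within both the noncoding gene lncRNA:CR42491 and *RpL22* on the same strand and is counted here under the narrower gene, had 87.3, 121 and 128 in the mutant and 83.1, 98.7 and 107 in control (0.21, SE 0.20). Psi18S-1389a, in *dom*, had 45.0, 71.0 and 68.2 in the mutant and 39.1, 61.1 and 43.1 in control (0.36, SE 0.27). The genotypes overlapped in all 3, and the edgeR adjusted p was 0.345 or more. Psi18S-1347a, in *pAbp*, the gene of the poly(A)-binding protein, was called with a small rise: 120, 129 and 146 in the mutant and 80.1, 96.7 and 84.1 in control (0.59, SE 0.16, adjusted p = 0.0263). That call was lost without mutant replicate 2, mutant replicate 3, control replicate 1 or control replicate 3, where the adjusted p ran from 0.0791 to 0.0916. It was also lost in lane 2 alone, in lane 3 alone and with the C/D snoRNA scaling described below.

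*RpS5a* holds more tested H/ACA snoRNA genes than any other host. It carries 14, of which 13 were tested and 7 called higher, 9 with the block, and 0 lower. The same fits called 14.5% of all genes higher, 22.2% with the block, and 17.8% lower. Log2 fold changes of the 13 ran from 0.20 to 3.95, with a median of 1.21. *RpS5a* itself had 10950, 15430 and 15550 normalized counts in the mutant and 12010, 13780 and 13580 in control (log2 fold change 0.09, SE 0.15, edgeR adjusted p = 0.676). All 13 tested guides had a larger log2 fold change than the host.

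Of the 14, 9 are packed into intron 2, where introns are counted from the 5′ end between the merged exons of all transcripts. The intron is 1665 bases long, and the 9 genes, between 17145210 and 17146759 on the minus strand of chromosome X, cover 78.0% of it with gaps of 10 to 66 bases. They belong to only 2 target positions, 28S 1135 with 6 copies and 18S 1854 with 3, which alternate toward the 3′ end. In the order of transcription, the log2 fold changes were 0.37 for Psi28S-1135a, 1.27 for 1135b, 0.84 for 1135c and 0.49 for 1135d, then 0.61 for Psi18S-1854a and 3.95 for Psi28S-1135e, then 2.85 for Psi18S-1854b, 0.20 for Psi28S-1135f and 2.38 for Psi18S-1854c. Psi28S-1135f, whose genotypes overlapped, lies between the 2 guides with the largest rises among members with a mean of at least 50. The difference between neighbours was not tested, and it rests in part on copies whose reads could be split among several genes.

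**Figure D3:**
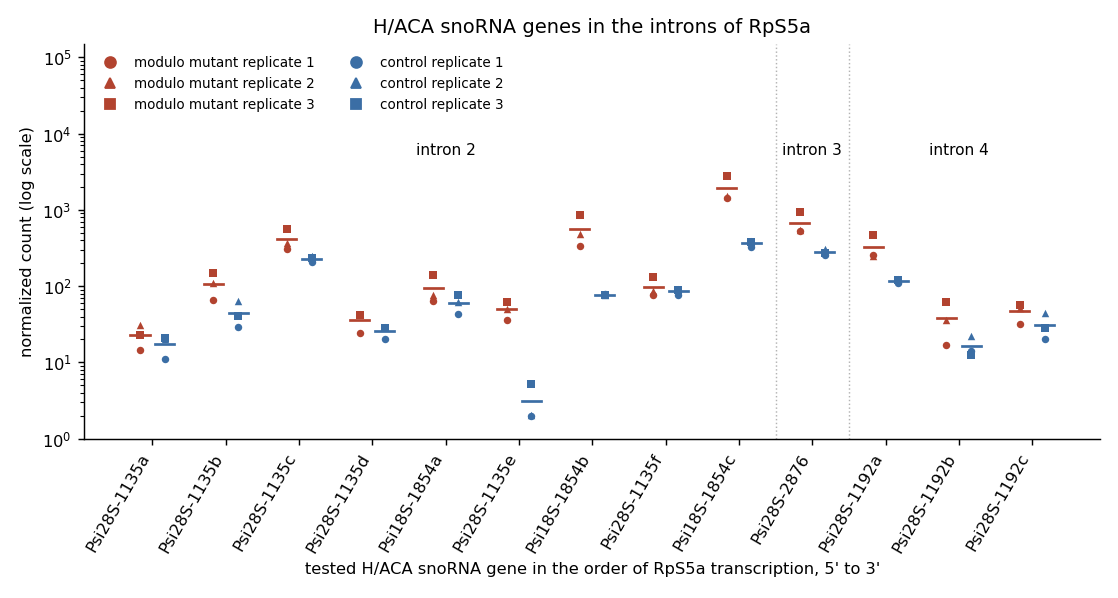
Normalized counts (log axis) of the 13 tested H/ACA snoRNA genes of RpS5a in the order of transcription, modulo mutant in red at left and control in blue at right of each pair, with bars at the group means and dotted lines between introns. The gap between genotypes is widest for Psi28S-1135e, Psi18S-1854b and Psi18S-1854c, while Psi28S-1135f, between Psi18S-1854b and Psi18S-1854c, overlaps.

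Psi28S-1135e (FBgn0083008) had the largest log2 fold change of all members. It had 40, 53 and 57 counts in the mutant against 2, 2 and 5 in control, or 36.0, 50.9 and 61.7 normalized counts against 2.00, 2.04 and 5.26 (log2 fold change 3.95, SE 0.41, edgeR adjusted p = 0.000635). It passed the count minimum through the mutant samples alone, so its being tested is not independent of its rise. Psi28S-1135f, its near neighbour, had 75.6, 87.3 and 131 in the mutant and 76.1, 91.6 and 88.3 in control (0.20, SE 0.24, adjusted p = 0.568). Reads that matched several genes were divided among them, and 14 and 13 of the 18 lanes held a fractional count for 1135e and 1135f. The split of reads between these and other genes is therefore uncertain, and the sequences of the copies were not compared. The same holds for Psi18S-1854b and Psi18S-1854c, with fractional counts in 8 and 10 lanes.

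Summing the copies of a position removes any split among those copies. The 6 copies for 28S 1135 together had 527, 687 and 960.2 normalized counts in the mutant and 344, 457 and 418 in control (log2 fold change 0.83, SE 0.23, edgeR adjusted p = 0.0298). The 3 copies for 18S 1854 had 1824, 2098 and 3782 in the mutant and 450.4, 534 and 534 in control (2.34, SE 0.28, adjusted p = 0.00114). Most of the 28S 1135 sum came from one copy, 1135c, with 311, 364 and 556 in the mutant and 205, 248 and 233 in control (0.84, SE 0.22, adjusted p = 0.0278). The call of 1135c was lost without mutant replicate 2 and without any 1 of the 3 controls (adjusted p from 0.0577 to 0.0875). It was also lost in lane 1 alone and in lane 3 alone. That of 1135b was lost without mutant replicate 2 or 3 or control replicate 1 or 3 (0.115 to 0.133). It was also lost in lane 1 alone, in lane 2 alone and with upper-quartile scaling (0.0535). Both calls were lost with the C/D snoRNA scaling described below. Psi28S-1135a, Psi28S-1135d and Psi18S-1854a were not called (adjusted p of 0.496, 0.256 and 0.233), though 1854a was with the block (0.0389).

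The 5 copies for 18S position 1377, all in intron 2 of *RpS7*, gave a second such set. Psi18S-1377e, the copy with the highest counts, had 618, 626 and 1017 normalized counts in the mutant and 272, 298 and 289 in control (log2 fold change 1.39, SE 0.21, edgeR adjusted p = 0.00277). Psi18S-1377b had 174, 264 and 306 in the mutant and 102, 130 and 156 in control (0.94, SE 0.25, adjusted p = 0.0284). Psi18S-1377d had 118, 178 and 189 in the mutant and 73.1, 81.4 and 96.7 in control (0.95, SE 0.22, adjusted p = 0.0176). Psi18S-1377a had 124, 191 and 247 in the mutant and 94.1, 116 and 117 in control (0.78, SE 0.26, adjusted p = 0.0584), and was called with the block (0.00965), by DESeq2 (0.0246), in lane 3 alone (0.0277) and without mutant replicate 1 (0.00549). In these 4 copies every mutant replicate lay above every control.

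Psi18S-1377c did not follow the other copies in value: 18.9, 28.8 and 42.2 normalized counts in the mutant and 25.0, 37.7 and 26.3 in control, a log2 fold change of 0.00 (SE 0.34, edgeR adjusted p = 0.994). Whether its fold change differed from those of the other copies was not tested. The calls of 1377b and 1377d were lost without mutant replicate 2 or 3 or control replicate 1 or 2, with adjusted p from 0.0517 to 0.0939. They were also lost with the C/D snoRNA scaling described below, that of 1377b in lane 2 alone and that of 1377d in lane 3 alone. The sum of the 5 copies was 1052, 1288 and 1802 in the mutant and 567, 664 and 684 in control (1.11, SE 0.20, adjusted p = 0.00626).

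Over all positions, summing copies left 47 of 51 to test. Of these, 33 were called higher (edgeR), where 14.5% of all features in that fit were, and 0 lower, where 17.8% were, with 43 above 0 and a median log2 fold change of 1.10. They were 13 of 16 positions in 18S rRNA and 20 of 31 in 28S rRNA. At 18 positions more than 1 copy was tested: every tested copy was called higher at 2 of them, some at 12 and none at 4.

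The count minimum left 22 genes untested, with at most 14 counts in any replicate and 0 counts in all 6 for 2 of them. Of the 22, 14 lie in *Arpc2*, a gene of the actin-nucleating Arp2/3 complex, which holds 10 of the 11 copies for 18S position 525 and all 7 for 18S 640. Summed, the copies for 525 had 63.9, 54.7 and 67.1 normalized counts in the mutant and 45.0, 40.7 and 45.2 in control (log2 fold change 0.50, SE 0.17, edgeR adjusted p = 0.0644), and those for 640 had 81.8, 71.0 and 113 in the mutant and 45.0, 54.0 and 44.1 in control (0.89, SE 0.22, adjusted p = 0.0232). The minimum was met in exactly 3 replicates by 7 genes. For 4 of them, Psi28S-1135e, Psi18S-841c, Psi28S-3316a and Psi28S-3316b, these were the 3 mutant replicates. Psi18S-841c had 14, 17 and 21 counts in the mutant and 7, 5 and 7 in control, Psi28S-3316a had 15, 10 and 11 in the mutant and 8, 4 and 9 in control, and Psi28S-3316b had 24, 16 and 23 in the mutant and 9, 5 and 9 in control. All but Psi28S-3316a are among the 45 called higher, and their being tested is not independent of their higher mutant counts. Of the other 80 tested members 42 were called higher, and no member was tested through control replicates alone. Of the other 3 genes, Psi18S-640d had 7, 15 and 17 counts in the mutant and 11, 5 and 5 in control, and Psi28S-1232 had 9, 6 and 11 in the mutant and 11, 5 and 15 in control. It was met in exactly 2 by 2 genes, Psi18S-525i, with 4, 11 and 13 counts in the mutant and 2, 0 and 9 in control, and Psi18S-525k, with 12, 3 and 4 in the mutant and 10, 6 and 3 in control. With no minimum, 45 of the 104 members with any count were called higher, where 11.9% of all genes in that fit were, and their median log2 fold change was 0.83.

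The members share a short length and, for most, an intronic home. They are 124 to 268 bases long, with a median of 140, and 101 of the 106 lie within introns of 27 host genes on the same strand. None of the 106 overlaps an exon of another gene on that strand, and 1, Psi28S-2622, has a gene on the other strand. Ribosomal protein genes host 40 of them, in 13 genes. Reads were counted by strand, but reads of unspliced host RNA that cover a snoRNA gene cannot be told apart from the snoRNA in gene counts.

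Of the 25 hosts of tested members, 4 were called (8.0% in each direction, against the 14.5% of all genes called higher and the 17.8% called lower). They were 2 called higher, *pAbp* (log2 fold change 0.47) and *Nop60B* (0.34), and 2 lower, *Hrb98DE* (-0.71), which encodes an hnRNP A-type RNA-binding protein, and *tou* (-0.52). The median over hosts was 0.06, and of the 12 ribosomal protein hosts 0 were called in either direction (edgeR), with 2 lower and 0 higher at an unadjusted p under 0.05. At that unadjusted level 22.3% of all genes were lower and 21.4% higher. With the replicate block 2 of the 25 hosts were called higher and 6 lower, where 22.2% and 23.4% of all genes were. The added ones were *RpL10Ab*, *RpL3*, *RpL22* and CG3902, with block adjusted p of 0.0265, 0.0391, 0.0106 and 0.0241. Without mutant replicate 1, 7 hosts were called higher and 4 lower, where 20.3% and 22.2% of all genes were. Leaving out any other replicate gave 0 lower hosts, where 12.2% to 15.1% of all genes were called lower. Of hosts, 1 was called higher without mutant replicate 2 or control replicate 1, where 7.03% and 9.07% of all genes were.

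For 74 of the 81 tested members with a host, the log2 fold change was above that of the host. Across those 81, the Spearman correlation between member and host was -0.004, over points that share libraries and, often, a host. *Hrb98DE* had 46710, 32010 and 27840 normalized counts in the mutant against 64020, 56760 and 53090 in control, while 3 of its 7 tested guides were called higher and 0 lower. That fit called 14.5% of all genes higher and 17.8% lower. *RpL10Ab* had 9271, 12670 and 14000 in the mutant against 12960, 16430 and 14910 in control (log2 fold change -0.30, edgeR adjusted p = 0.214), while its one guide, Psi18S-920, rose by 1.93. The 3 guides of *RpS16* and the 3 of *Sf3b3*, a splicing factor gene, were all called higher, and neither host was called (adjusted p of 0.456 and 0.0813). The 3 tested guides with no host, Psi18S-176, Psi28S-2622 and Psi28S-3342, were called higher with log2 fold changes of 1.20, 1.17 and 1.15.

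**Figure D4:**
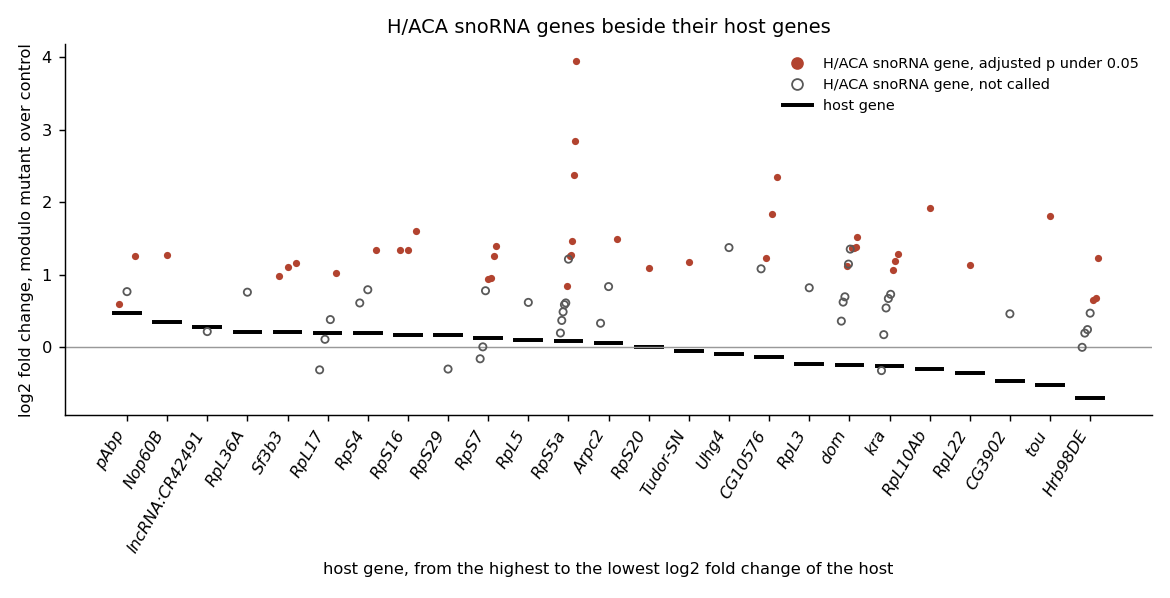
Log2 fold change (modulo mutant over control) of each tested H/ACA snoRNA gene above the name of its host, with the host's own value as a black bar and hosts ordered from the highest (pAbp, 0.47) to the lowest (Hrb98DE, -0.71). Filled points passed an adjusted p under 0.05, and 74 of the 81 points lie above their host's bar.

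Of 8 genes listed for the proteins that bind and assemble these RNAs, 3 were called higher and 1 lower (37.5% and 12.5%, against 14.5% and 17.8% of all genes), and all 8 had a log2 fold change below the members' median. *Nop60B*, the synthase, had 2213, 2335 and 2260 normalized counts in the mutant and 1716, 1814 and 1844 in control (1.27-fold, edgeR adjusted p = 0.0135). *NHP2*, a core protein, had 1042, 1317 and 1249 in the mutant and 756, 916 and 887 in control (1.41-fold, adjusted p = 0.022). CG10055, which has no gene name in the annotation used, had 24510, 18270 and 17210 in the mutant and 14040, 11990 and 12230 in control (1.57-fold, adjusted p = 0.0165). None of the 3 overlapped between genotypes.

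*Nop10* had 597, 735 and 779 normalized counts in the mutant and 504, 562 and 581 in control (1.28-fold, edgeR adjusted p = 0.0668), and was called with the block (0.0142). *Gar1* had 686, 615 and 620 in the mutant and 617, 495 and 561 in control (1.15-fold, adjusted p = 0.206), and CG10341, also unnamed, 652, 674 and 616 in the mutant and 598, 657 and 625 in control (1.03-fold, adjusted p = 0.707). The ATPase gene *pont*, whose product takes part in snoRNP assembly and chromatin remodeling, had 10580, 10430 and 9624 in the mutant and 11740, 12820 and 12140 in control (0.835-fold, adjusted p = 0.0433). Its partner *rept* had 12500, 10500 and 9869 in the mutant and 12870, 12160 and 11920 in control (0.889-fold, adjusted p = 0.267). Only 1 of the 8 was called higher without mutant replicate 2, control replicate 1 or control replicate 3. In those fits 7.03%, 9.07% and 7.84% of all genes were called higher.

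Of 10 genes for the release and trimming of intron-encoded RNAs, 2 were called higher, *Rrp40* (1.57-fold) and *Csl4* (1.55-fold), both of the exosome, which trims RNA from the 3′ end, and 0 lower (edgeR, 0 also at an unadjusted p under 0.05). Over all genes 14.5% were called higher and 17.8% lower, and 22.3% were lower at an unadjusted p under 0.05. The lariat debranching enzyme gene *ldbr* had 674, 579 and 586 normalized counts in the mutant and 685, 627 and 647 in control (0.939-fold, adjusted p = 0.506). With the block, *Rat1*, *Ski6* and *Mtr4* were also called higher (block adjusted p of 0.0236, 0.0131 and 0.0342), 5 of 10 where 22.2% of all genes were.

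Other short noncoding RNAs of the same libraries were called higher too, where 14.5% of all genes were. Of 21 genes for U1, U2, U4 and U5, the small nuclear RNAs (snRNAs) of the spliceosome, 14 were tested and 13 called higher, with a median log2 fold change of 1.03. These genes outnumber the snRNAs, and pairs that mapped to several genes were divided among them, so the calls need not be independent. Of 17 scaRNA genes, guides for snRNA modification, 9 were tested and 6 called higher (median 1.41), and of 9 orphan H/ACA genes 3 were tested and all 3 called higher (median 1.19). C/D snoRNAs, among which are the guides of 2′-O-methylation, had 11 of 112 genes tested and 4 called higher, with a median of 0.50. In none of these lists was a gene called lower (edgeR) or lower at an unadjusted p under 0.05, where 17.8% and 22.3% of all genes were. U6 genes had a median of 0.13, and 0 of 3 were called or had an unadjusted p under 0.05. Their counts were low, with summed normalized counts of 157, 231 and 216 in the mutant and 170, 221 and 160 in control. Without control replicate 3, 1 C/D gene was called higher, where 7.84% of all genes were. Without mutant replicate 2, mutant replicate 3 or control replicate 1, 2 were, where 7.03%, 10.5% and 9.07% of all genes were.

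The ratio of the summed H/ACA level to the summed snRNA level was similar in all 6 replicates. All 106 genes together had 20336, 26033 and 38196 normalized counts in mutant replicates 1 to 3 and 11675, 15506 and 14267 in control. U1, U2, U4 and U5 genes had 24063, 29404 and 42254 in the mutant and 14032, 17513 and 16346 in control. Per 100 counts of these snRNAs, the H/ACA sum was 84.5, 88.5 and 90.4 in the mutant and 83.2, 88.5 and 87.3 in control, so the genotypes overlapped in this ratio although neither sum did. Against C/D snoRNAs, the ratio per 100 was 142, 105 and 142 in the mutant and 134, 115 and 123 in control, which also overlapped. The 11 tested C/D genes had a median mean of 102 normalized counts, so a few genes made up most of the C/D sum. Against the 7SL genes, for the RNA of the signal recognition particle, the ratio was 7.79, 6.13 and 6.58 per 1000 in the mutant and 5.64, 4.50 and 4.92 in control, with no overlap. The 7SL gene CR32864 had a log2 fold change of 0.59 (SE 0.31, adjusted p = 0.19).

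**Figure D5:**
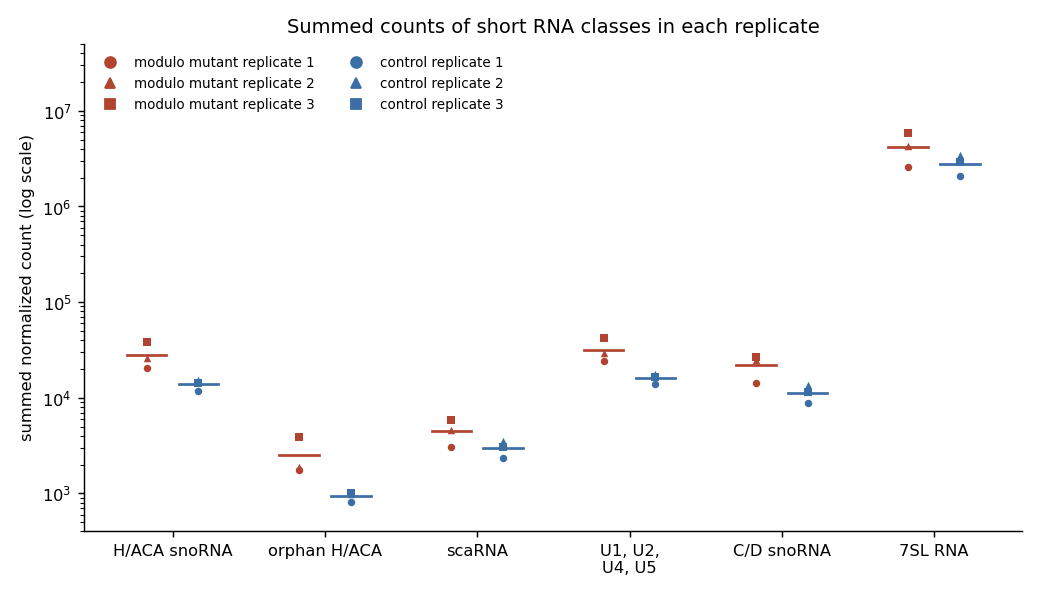
Summed normalized counts (log axis) of short RNA classes in each replicate, modulo mutant in red at left and control in blue at right of each pair, with bars at the group means. Mutant replicate 3 is highest in each class shown, and the H/ACA, orphan H/ACA, snRNA and C/D sums do not overlap between genotypes.

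Scaling each library to the 11 tested C/D snoRNA genes, a choice made after seeing the data, moved the median log2 fold change of all genes by -0.58. On that scale 21 members were called higher, where 2.03% of all genes were, and 2 lower, Psi28S-3186 and Psi18S-1275, where 39.6% of all genes were. The members' median was 0.42 and 60 of the 84 were above 0. Psi18S-1854b, Psi18S-1854c and Psi18S-920 were called higher on that scale too, the first 2 with reads that could be split among copies. The share of rRNA and mitochondrial genes and the summed level of each short RNA class except U6 were highest in mutant replicate 3, and whether the yield of short RNA in library preparation had a part in the members' rise was not tested.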

How the data were processed

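Testes of 3 *modulo* mutant and 3 control replicates were analysed, each sequenced in 3 lanes, with genotype, replicate and lane taken from the labels. The authors mapped the reads with STAR 2.7.1a (BDGP6, dm6) and assigned them to FlyBase genes by strand with featureCounts, giving each position of a multiply mapped pair a fraction. What they deposited are therefore raw estimated counts, some of them fractional. The combined table repeats the lane files and was left out, and 0 columns belonged to other samples. Lanes were summed and rounded. The 14059 genes that reached 10 counts in 3 or more replicates were tested with edgeR 4.0.16 in R 4.3.3 (TMM, quasi-likelihood, Benjamini-Hochberg over all genes tested, called at an adjusted p under 0.05), without a block. DESeq2 1.42.0 was an alternative, beside other scalings and filters, single lanes, unrounded sums, copies of a position summed, and each replicate left out. Total counts of 87119182 to 107435753 leave the low-count members limited by counting error.

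Mutant and control share replicate numbers 1, 2 and 3. Across genes, deviations from the genotype means correlated at 0.556, 0.581 and 0.167 within the numbers and at -0.583 to 0.107 between them. The pair of number 3 (0.167) lay near the highest value between numbers. The calls come from the fit without a block, and the fit with the replicate number as a block is given beside it where it changes them. The labels do not say what a number shares.

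Symbols, positions, introns and hosts came from the BDGP6 annotation of the same assembly. The genes named with values are the 5 members with the highest mean, the 8 highest and 8 lowest log2 fold changes among members with a mean of at least 50, members called lower, all copies of the 2 positions with most tested copies, the H/ACA protein genes, and hosts of named members. Others were named after their values were seen. The members and lists were chosen with earlier results of these data known. Of the germline markers, *nos* was not matched. The fit was tested on simulated counts with 200 changed genes. Sequences of the snoRNAs were not used here.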

Additional observations from a re-analysis of the deposited data

How the results depend on the processing

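Of 545 values of named members under the alternatives, 35 lost the call, 13 gained it, 0 reversed a call and the other 497 stayed called or uncalled as before. The counts of calls moved by over 1.5 times as follows. Hosts called lower were 4 with total counts alone and 4 with DESeq2, 1 in lane 3 alone and 6 with the replicate block, against 2. In lane 2 alone 18 of the 28S guides were called higher, where fewer were tested. The replicate block gave 56 members called higher and 1 lower, against 45 and 0, and a median log2 fold change of 1.02. Restricting to members with a mean of at least 100 left 21 called of 27. Scaling to the C/D snoRNA genes, added after seeing the data, gave 21 members higher and 2 lower with a median of 0.42. It gave 10 of the 18S and 11 of the 28S guides higher, 0 hosts higher and 17 lower, and 0 H/ACA protein genes higher. On that scale 2.03% of all genes were called higher and 39.6% lower, and their median moved by -0.58. The C/D genes set this scale, so the 0 of them called higher there cannot be read as a result. Leaving out each replicate in turn gave 27 to 55 members called higher, 0 lower, a median of 0.76 to 1.18, 10 to 20 of the 18S and 16 to 35 of the 28S guides higher, 1 to 7 hosts higher and 0 to 4 lower, 1 to 4 H/ACA protein genes higher and 1 to 5 C/D genes higher. In the fits that left out a replicate, 7.03% to 20.3% of all genes were called higher and 12.2% to 22.2% lower. The cause of the moves in these counts was not tested, except that fewer genes or replicates entered some fits.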
